A study of Mus musculus with 3 samples.

Results

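This account follows 9 transcription factor genes grouped here under the name of projection neurons of the pallium. The pallium is the dorsal part of the forebrain that gives rise to the cortex and to the glutamatergic neurons of the basolateral amygdala (BLA). The genes are *Etv1*, *Fezf2*, *Tbr1*, *Bcl11a*, *Bcl11b*, *Rorb*, *Neurod2*, *Neurod6* and *Zfp536*. They were chosen by name and taken by symbol, 9 of the 32285 genes in each count matrix, and all 9 are annotated as protein coding. Their RNA was described in 692 glutamatergic and 1116 GABAergic nuclei of 2 libraries of single-nuclei RNA sequencing (snRNAseq), and in glial and vascular nuclei beside them. In this assay each droplet labels the RNA of a nucleus with a barcode, and each captured molecule gets its own random tag, the unique molecular identifier (UMI), so the values count molecules.

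In the cortex and the amygdala, glutamatergic neurons switch on NeuroD factors and the T-box factor *Tbr1* as they leave the cell cycle, and later keep sets of factors that differ between kinds of projection neuron. *Fezf2* and *Bcl11b* (also called Ctip2) are best known from neurons that project below the cortex, *Etv1* (also called Er81) and *Rorb* from single cortical layers. GABAergic neurons arise in the subpallium under another set of factors, among them *Dlx* genes and *Lhx6*, and several of the 9 genes, such as *Bcl11a*, *Bcl11b*, *Rorb* and *Zfp536*, are also used outside the pallium.

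All nuclei came from tissue microdissected as the BLA of male C57BL/6NRj mice at postnatal day 56, with no allele or treatment given in the labels. The tissue of 4 brains of 1 litter was pooled in each dataset. There was thus no second condition and no value of a single animal. The study assigned some of its nuclei to neighbouring regions, among them the posterior medial amygdala and the amygdalostriatal area. The 3 libraries are replicates 1, 2 and 3 and held 819, 3792 and 4588 barcodes with 8078394, 24354374 and 33049068 UMIs. The labels call the cells neuronal, yet barcodes with glial and vascular markers were present. Library 1 stood apart: 91.0% of its barcodes fell in no class, against 61.1% in library 2 and 57.8% in library 3, and 515 of its 819 barcodes, against 126 and 227 in libraries 2 and 3, fell in none with UMIs of both transmitter gene sets. Library 1 is therefore described in the closing section. The values here come from libraries 2 and 3, except where library 1 is said to be added. Libraries 2 and 3 shared 7 barcode sequences, none of them in a neuronal class in both. The labels do not say whether the libraries came from separate pools of brains. The p-values therefore measure only spread between these libraries, which may be technical. With 2 sums a side, the spread of each gene was estimated with help from all genes tested.

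A barcode was called glutamatergic with at least 2 UMIs of the vesicular glutamate transporters *Slc17a7* and *Slc17a6* together, none of *Gad1* or *Gad2*, which make GABA, and less than 0.1% of its UMIs from the astrocyte glutamate transporters *Slc1a2* and *Slc1a3*. It was called GABAergic with at least 2 UMIs of *Gad1* and *Gad2* and none of *Slc17a7* or *Slc17a6*, with no limit on astrocyte RNA. This gave 484 glutamatergic barcodes in library 2 and 208 in library 3, with medians of 15525.5 and 13115 UMIs, and 400 and 716 GABAergic barcodes with medians of 7646 and 7370.5 UMIs. Of 21 further markers of the 7 classes, 18 were highest in their own class in both libraries. *Neurod1* and *Vtn* were among those that were not. Glial and vascular barcodes had no UMI of either transmitter set. The gates were at least 2 UMIs of *Mog* and *Mag* for oligodendrocytes, of *Pdgfra* and *Cspg4* with no *Mog* or *Mag* for oligodendrocyte precursors, of *Csf1r*, *Cx3cr1* and *P2ry12* for microglia and of *Flt1*, *Cldn5* and *Pecam1* for vascular cells. Astrocyte-gated barcodes had at least 1% of their UMIs from *Slc1a2* and *Slc1a3* and 1 UMI of *Aqp4* or *Gja1*. Levels are given as CPM, counts per 1000000: the UMIs of a gene per 1000000 UMIs of all barcodes of a class in a library. They are compared between classes for 1 gene, never between genes, since nuclear counts were not scaled by gene length.

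*Neurod2*, *Neurod6*, *Tbr1* and *Fezf2* were almost only found in glutamatergic barcodes among the 2 neuronal classes, at low UMI counts. *Neurod2* and *Neurod6* encode basic helix-loop-helix factors that bind E-boxes, *Tbr1* a T-box factor and *Fezf2* a zinc finger factor. In the mm10 genome (GRCm38) *Neurod2* lies on the minus strand at chr11:98325415-98329648, *Neurod6* on the minus strand at chr6:55677822-55681263, *Tbr1* on the plus strand at chr2:61802930-61814114 and *Fezf2* on the minus strand at chr14:12342094-12348189. NeuroD factors bind E-boxes, so the 250 bases before the start sites of the NeuroD genes are shown to see which of these they carry. They are read along the gene's strand from RefSeq on GRCm38.p6, with every E-box in capitals. An E-box is CANNTG, a pattern that reads the same on both strands, though a single box such as CAGATG does not. The windows span chr11:98329646-98329895 and chr6:55681264-55681513.
Neurod2: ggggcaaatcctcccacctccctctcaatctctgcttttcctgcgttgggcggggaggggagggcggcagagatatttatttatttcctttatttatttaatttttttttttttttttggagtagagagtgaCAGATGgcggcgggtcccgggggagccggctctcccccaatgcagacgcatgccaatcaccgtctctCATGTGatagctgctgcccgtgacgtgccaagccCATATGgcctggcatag
Neurod6: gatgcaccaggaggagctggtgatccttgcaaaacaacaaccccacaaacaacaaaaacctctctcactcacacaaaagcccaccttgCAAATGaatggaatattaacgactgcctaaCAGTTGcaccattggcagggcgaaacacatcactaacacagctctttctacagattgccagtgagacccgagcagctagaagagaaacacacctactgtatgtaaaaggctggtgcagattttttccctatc
The *Neurod2* window holds 3 E-boxes, the first of them CAGATG, the form that NeuroD factors prefer, and the *Neurod6* window holds 2, neither of that form. Of 32851 windows of 250 bases before annotated starts, 66.2% hold an E-box and 14.4% hold CAGATG or CATCTG. A match is only a match of letters.

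*Neurod2* reached 16.2 CPM in glutamatergic barcodes of library 2 and 11.03 in library 3, against 0.543 and 1.68 in GABAergic barcodes. It was found in 22.1% (95% confidence interval 18.5 to 26.1%) and 13.0% (8.73 to 18.3%) of glutamatergic barcodes and in 0.5% and 1.26% of GABAergic ones. *Neurod6* stood at 6.31 and 3.78 CPM against 0.272 and 0.611, in 8.47% and 5.77% of glutamatergic and 0.25% and 0.559% of GABAergic barcodes. For both genes the 2 glutamatergic values lay above the 2 GABAergic ones. *Tbr1* stood at 6.91 and 3.47 CPM against 1.09 and 0.153, in 9.71% and 4.81% against 1.0% and 0.140% of barcodes. *Fezf2* stood at 10.95 and 6.94 CPM against 0.815 and 0.917, in 15.3% and 8.17% against 0.75% and 0.698% of barcodes. For these 2 genes as well the groups did not overlap, and all 4 genes were lower in library 3 than in library 2 in glutamatergic barcodes. With 2 values a side a lack of overlap, here and below, is a description only. The share of all genes without overlap was not counted. No glutamatergic barcode held more than 4 UMIs of *Neurod2*, more than 3 of *Tbr1* or *Neurod6*, or more than 5 of *Fezf2*.

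With every neuronal barcode cut at random to 3700 UMIs, so that depth no longer differed, *Neurod2* was still found in 6.14% and 4.59% of glutamatergic against 0.288% and 0.469% of GABAergic barcodes. At least 1 UMI of any of the 4 genes was seen in 40.5% and 26.4% of glutamatergic barcodes at full depth and in 2.25% and 2.51% of GABAergic ones, and in 13.4% and 9.69% against 0.865% and 0.626% at the common depth. In the test across all genes (edgeR's quasi-likelihood test on 2 sums per class, Benjamini-Hochberg adjusted p), the difference of glutamatergic from GABAergic barcodes on the log2 scale was 3.46 ± 0.44 (SE) for *Neurod2* (adjusted p = 0.000155), 3.39 ± 0.57 for *Neurod6* (adjusted p = 0.0012), 3.40 ± 0.65 for *Tbr1* (adjusted p = 0.00271) and 3.36 ± 0.46 for *Fezf2* (adjusted p = 0.000248). The GABAergic side of these differences rests on 1 to 11 UMIs per library, and the genes passed the filter on low counts through the glutamatergic side. With library 1 added none of the 4 passed, at differences of 2.85 for *Neurod2* (adjusted p = 0.485), 3.29 for *Neurod6* (adjusted p = 0.245), 2.79 for *Tbr1* (adjusted p = 0.679) and 2.82 for *Fezf2* (adjusted p = 0.437).

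*Fezf2* was also found outside neurons. Astrocyte-gated barcodes held it at 13.5 and 11.01 CPM, in 5.03% and 3.95% of barcodes, a mean of 12.3 ± 1.79 (SD, n = 2 libraries) against a glutamatergic mean of 8.95 ± 2.84. Both astrocyte values, on 9 and 20 UMIs, lay above both glutamatergic ones, the nearest at 10.95 CPM, and the difference was not tested. *Neurod2* in the same astrocyte-gated barcodes stood at 0 and 1.10 CPM and *Tbr1* at 0 and 0.551 CPM. Microglia-gated barcodes held *Fezf2* at 8.13 and 11.7 CPM, on 2 UMIs in each library, and *Neurod2* at 8.13 and 5.84 CPM, below its glutamatergic values. In precursor-gated barcodes *Fezf2* and *Tbr1* were not detected in either library, in 103 barcodes of library 2 and 96 of library 3, which allows a share of up to 2.91% and 3.13%. Intervals and such limits cover counting error only.

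*Etv1* (chr12:38779380-38870484, plus strand) encodes an ETS factor. It was found in over 55% of glutamatergic barcodes and was the member most widely detected in them after *Bcl11b*. Its level was 154 and 141 CPM in glutamatergic barcodes of libraries 2 and 3 and 27.4 and 22.0 CPM in GABAergic barcodes. The shares with a UMI were 56.4% (51.9 to 60.9%) and 55.3% (48.3 to 62.2%) against 13.25% and 11.2%, and at 3700 UMIs 33.8% and 32.1% against 5.48% and 5.01%. The classes did not overlap on any of these measures, and the difference on the log2 scale was 2.63 ± 0.17 (SE, adjusted p = 1.39e-06, edgeR), or 2.09 with library 1 added, which did not pass (adjusted p = 0.245). *Etv1* was also found in every glial class. The glutamatergic mean of 147 ± 9.27 CPM (SD, n = 2) was followed by precursor-gated barcodes at 130 and 105 CPM, astrocyte-gated barcodes at 54.2 and 56.7 CPM and oligodendrocyte-gated barcodes at 40.0 and 28.8 CPM, and GABAergic barcodes had the lowest mean of the 7 classes, 24.7 ± 3.85 CPM. Microglia-gated barcodes, at 61.0 and 123 CPM, overlapped the precursor-gated ones. The plot of levels by class shows that order for all 9 genes.

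**Figure D1:**
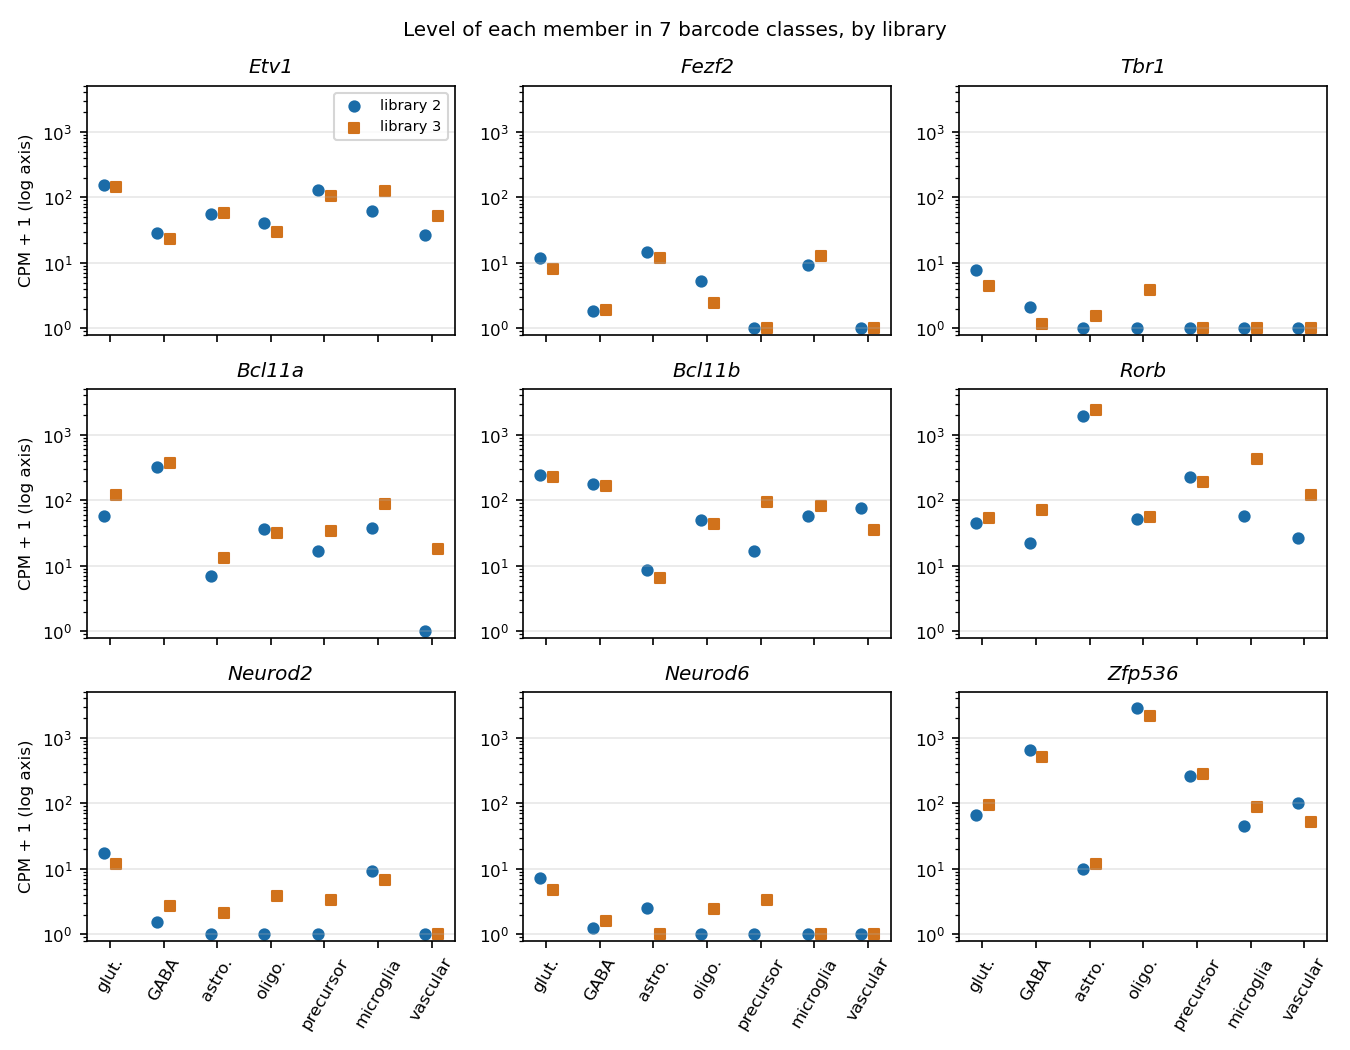
Level of each of the 9 genes, as CPM + 1 on a log axis, in the 7 classes of barcodes, with 1 point per library (2 and 3). *Neurod2*, *Neurod6*, *Tbr1*, *Etv1* and *Bcl11b* are highest in glutamatergic barcodes, *Bcl11a* in GABAergic, *Rorb* and *Fezf2* in astrocyte-gated and *Zfp536* in oligodendrocyte-gated barcodes.

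Within the glutamatergic class *Etv1* was uneven. In library 2, 211 of 484 barcodes had none, 177 had 1 to 4 UMIs and 96 had 5 or more. In library 3 these numbers were 93, 87 and 28 of 208. The share with *Etv1* went with depth, from 37.7% in the shallowest group of library 2 (median 7014 UMIs) to 77.0% in the deepest (median 27084), so single barcodes without a UMI cannot be called negative. *Bcl11b* had 5 or more UMIs in 181 and 62 barcodes, *Rorb* in 26 and 14, and *Zfp536* in 39 and 20. The 4 sparse genes almost never reached 5 UMIs, with 1 barcode for *Fezf2* in library 2 and none for *Tbr1*, *Neurod2* or *Neurod6*.

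**Figure D2:**
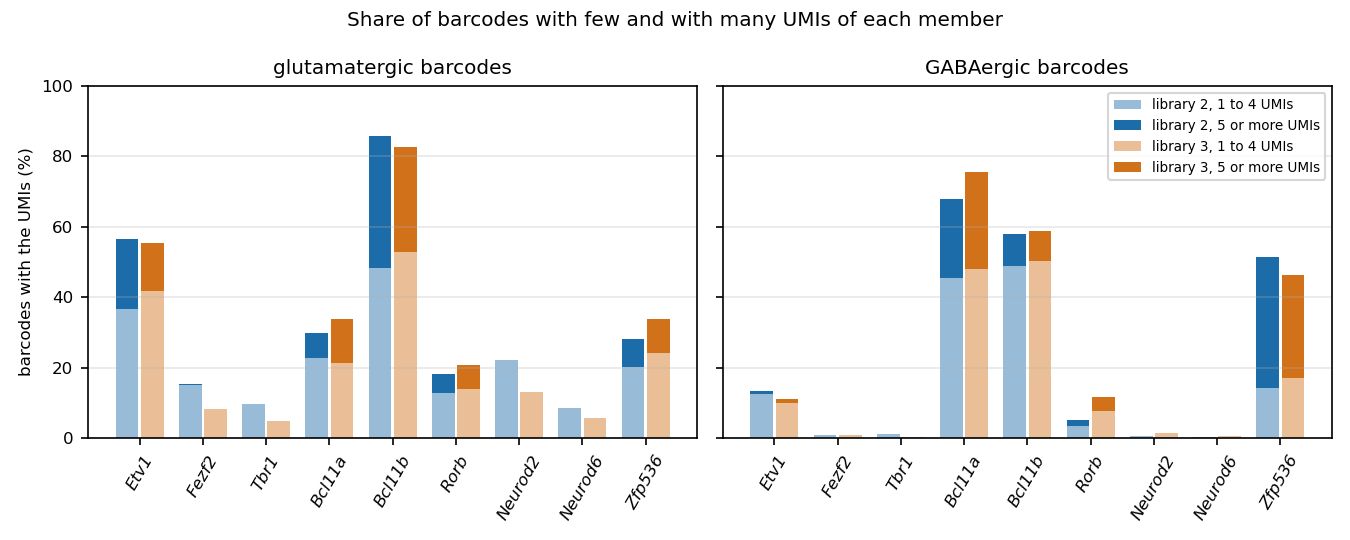
Share of glutamatergic and GABAergic barcodes with 1 to 4 UMIs (light) and 5 or more UMIs (dark) of each gene, stacked, per library, in percent of barcodes. *Zfp536* has 5 or more UMIs in 149 of 400 and 210 of 716 GABAergic barcodes and in 39 of 484 and 20 of 208 glutamatergic ones.

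The paralogs *Bcl11a* (chr11:24078056-24174123, plus strand) and *Bcl11b* (chr12:107910403-108003602, minus strand) encode zinc finger factors that act as parts of chromatin remodelling complexes. *Bcl11a* was higher in GABAergic barcodes, and *Bcl11b* was common in both classes. *Bcl11a* stood at 56.1 and 120 CPM in glutamatergic barcodes and at 320 and 367 CPM in GABAergic barcodes, in 29.8% and 33.7% against 67.75% and 75.7% of barcodes. The deeper class thus had the lower share, and at 3700 UMIs the shares were 16.2% and 19.9% against 55.0% and 60.9%. From GABAergic to glutamatergic barcodes *Bcl11a* fell by 1.92 ± 0.33 on the log2 scale (SE, adjusted p = 0.00135, edgeR). With library 1 added the difference was -1.52 and did not pass (adjusted p = 0.609). The opposite-strand genes *Gm12064* and *4930538E20Rik*, which overlap *Bcl11a*, held 34 and 11 UMIs in all glutamatergic barcodes together. In glutamatergic barcodes *Bcl11a* was the least even member between libraries, with a mean of 88.1 ± 45.3 CPM (SD, n = 2).

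*Bcl11b* stood at 238 and 227 CPM in glutamatergic and 176 and 163.5 CPM in GABAergic barcodes, in 85.7% and 82.7% against 58.0% and 58.7% of barcodes. At the common depth the shares were 57.5% and 51.0% against 41.5% and 37.7%. The groups did not overlap, but the difference of 0.51 ± 0.17 on the log2 scale missed the threshold (adjusted p = 0.0646). With the library as a replicate block the difference of *Bcl11b* was the same 0.51 and passed (adjusted p = 0.00389), and with the glutamatergic class taken by *Slc17a7* alone it was 0.59 (adjusted p = 0.0299). In glia *Bcl11b* was at its lowest in astrocyte-gated barcodes, at 7.52 and 5.51 CPM.

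*Zfp536* (chr7:37472135-37773641, minus strand) encodes a zinc finger repressor of neuronal differentiation genes, and in these libraries it was neither highest in projection neurons nor sparse outside them. Oligodendrocyte-gated barcodes held 2888 and 2188 CPM and had a UMI in 95.6% and 97.3% of barcodes. GABAergic barcodes followed at 660 and 508 CPM, precursor-gated barcodes at 260 and 275 CPM, and glutamatergic barcodes held 65.3 and 92.4 CPM. None of these 4 ranges overlapped. *Zfp536* was found in 28.1% and 33.7% of glutamatergic and 51.5% and 46.4% of GABAergic barcodes, and from GABAergic to glutamatergic barcodes it fell by 2.83 ± 0.26 on the log2 scale (SE, adjusted p = 1.35e-05, edgeR). With library 1 added the difference was -2.18 and did not pass (adjusted p = 0.404). GABAergic barcodes with no UMI of the oligodendrocyte genes *Mog* and *Mag* numbered 382 of 400 and 678 of 716. In them *Zfp536* stood at 661 and 497 CPM, in 50.3% and 44.4% of barcodes. In the 18 and 38 with such UMIs it stood at 645 CPM in both libraries, in 77.8% and 81.6% of barcodes. Per 100 UMIs of 5 myelin genes, oligodendrocyte-gated barcodes held 24.9 and 27.0 UMIs of *Zfp536*, GABAergic barcodes 588 and 358, and glutamatergic barcodes 59.8 and 98.7. The part of myelin RNA in the levels of *Zfp536* was not tested.

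*Rorb* (chr19:18930605-19111196, minus strand), a nuclear receptor known as a layer marker of the cortex, was highest in astrocyte-gated barcodes here. Astrocyte-gated barcodes held 1958 and 2403 CPM and had a UMI in 94.4% and 98.5% of barcodes, while glutamatergic barcodes held 44.1 and 53.6 CPM and GABAergic barcodes 21.5 and 70.9 CPM. The 2 neuronal classes overlapped, and their difference on the log2 scale was 0.02 ± 0.40 (SE, adjusted p = 0.984, edgeR), with 0.27 and adjusted p = 0.517 under the replicate block. As a share of barcodes *Rorb* was found in 18.2% and 20.7% of glutamatergic and in 5.0% and 11.7% of GABAergic barcodes.

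The astrocyte limit applied to the glutamatergic class only, and *Rorb* in GABAergic barcodes moved with astrocyte RNA. The 12 and 39 GABAergic barcodes at or over 0.1% of *Slc1a2* and *Slc1a3* held *Rorb* at 583 and 638 CPM, in 75% and 92.3% of barcodes. The other 388 and 677 held 4.20 and 14.8 CPM. With the limit set on both classes *Rorb* was higher in glutamatergic barcodes by 2.24 on the log2 scale (adjusted p = 0.000763), so the result for this gene turns on that limit. Per 100 UMIs of *Slc1a2* and *Slc1a3*, astrocyte-gated barcodes held 13.6 and 17.5 UMIs of *Rorb*, all GABAergic barcodes 9.31 and 17.6, and glutamatergic barcodes 24.1 and 31.5. The gates cap these UMIs in glutamatergic and set a floor for them in astrocyte-gated barcodes, so nothing is read from the order of these ratios. The astrocyte gene *Gfap* was at 0 in GABAergic barcodes of both libraries and in glutamatergic barcodes of library 3, and at 0.119 CPM in those of library 2. It was low in astrocyte-gated barcodes too, at 30.1 and 13.2 CPM. The astrocyte marker *Slc4a4* was detected in both neuronal classes, at 208 and 266 CPM in GABAergic and at 49.8 and 90.5 CPM in glutamatergic barcodes. In astrocyte-gated barcodes it stood at 2105 and 2771 CPM.

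**Figure D3:**
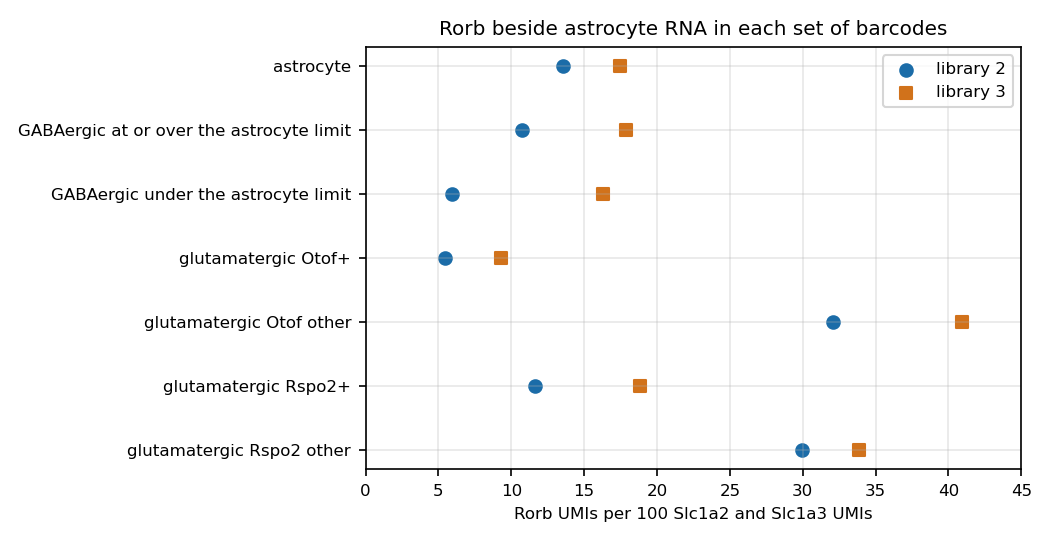
*Rorb* UMIs per 100 UMIs of *Slc1a2* and *Slc1a3* in groups of barcodes, with 1 point per library. Astrocyte-gated barcodes lie at 13.6 and 17.5, glutamatergic barcodes without 2 UMIs of *Otof* at 32.1 and 40.9, and those with them at 5.47 and 9.32. *Slc1a2* and *Slc1a3* also set the astrocyte gate and the limit on glutamatergic barcodes.

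Counted together, 5 of the 9 members were higher in glutamatergic barcodes, where 7.62% of the 13076 genes tested were, and 2 of 9 were lower, where 9.16% were. In all, 16.8% of genes passed in either direction. Of the 5, *Neurod2*, *Neurod6*, *Tbr1* and *Fezf2* entered the test only through the glutamatergic side, so a call for them could hardly go the other way and the count is given as a description only. With the barcodes at 3700 UMIs *Neurod2*, *Etv1*, *Bcl11a* and *Zfp536* passed, and *Fezf2*, *Tbr1* and *Neurod6* fell below the filter on low counts. By level, *Neurod2*, *Neurod6*, *Tbr1*, *Etv1* and *Bcl11b* were highest in glutamatergic barcodes, while *Bcl11a*, *Rorb*, *Zfp536* and *Fezf2* were highest in another class and so did not follow the name of the group. With library 1 added, none of the 9 members passed and 2 genes did in all.

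**Figure D4:**
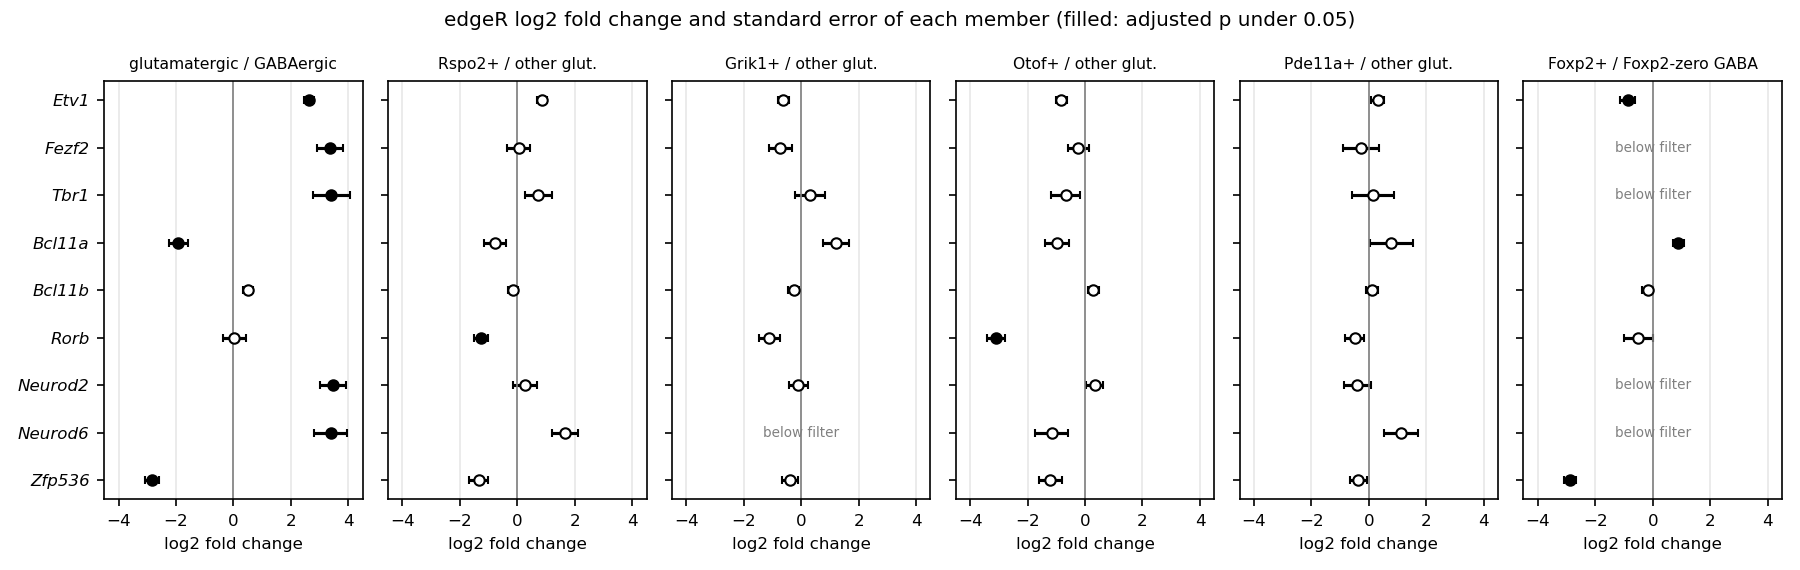
Difference of each gene on the log2 scale, with bars of 1 SE, for glutamatergic against GABAergic barcodes and for the splits of each class, from edgeR on 2 libraries. Filled points passed the adjusted p threshold of 0.05. Among glutamatergic splits only *Rorb* does so, at -1.26 for *Rspo2* and -3.09 for *Otof*.

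Other transcription factors of the 2 lineages were read from 2 lists, one for each lineage. Of 34 other pallial factors 27 were tested, and 12 were higher and 3 lower in glutamatergic barcodes, with a median difference of 0.48 against -0.01 over all genes. The largest differences were 4.90 for *Emx1* and 2.77 for *Zbtb18*, which help to specify pallial neurons, 2.74 for *Lhx2*, a LIM homeobox factor, and -2.40 for *Pou3f2*, a POU factor. *Emx1* stood at 3.45 and 3.78 CPM in glutamatergic barcodes against 0 and 0.153. Of 24 factors of the GABAergic lineage 18 were tested. Of these, 15 were lower and 1 was higher, *Nr2f2* by 2.08, with a median difference of -4.55. Among the largest differences were -7.72 for *Lhx6*, -6.08 for *Six3* and -5.98 for *Maf*. *Bcl11a* and *Zfp536* had the negative sign of most of the GABAergic list, which the 3 lower pallial factors had as well. Both differences were closer to 0 than the median of the GABAergic list.

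The 4 genes that divide the glutamatergic barcodes further are *Rspo2*, a secreted activator of Wnt signalling that marks basal amygdala neurons, *Grik1*, a kainate receptor subunit, *Otof*, a calcium sensor of vesicle release, and *Pde11a*, an enzyme that breaks down cyclic nucleotides. The study places a glutamatergic cluster with *Pde11a* and *Esr1* as markers in the posterior medial amygdala, outside the BLA. A barcode counted as positive with at least 2 UMIs of *Rspo2*, *Grik1* or *Otof*, or 1 of *Pde11a*. The splits overlapped and shared barcodes, and a positive barcode was usually deeper, as with *Rspo2* at medians of 24418 and 19108 UMIs against 14308 and 12523. CPM values and ratios within groups of about 20 barcodes of like depth are therefore given beside shares.

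In *Rspo2*-positive barcodes, 96 in library 2 and 28 in library 3, *Rorb* was lower, and *Etv1* and *Neurod6* had higher values that missed the threshold. *Rorb* stood at 23.0 and 25.0 CPM against 52.9 and 60.8 in the other barcodes, and it fell by 1.26 ± 0.24 on the log2 scale (SE, adjusted p = 0.0457, edgeR). It was the 1 member of 9 to pass, where 0.598% of 10861 genes did and 0.267% were lower. The call was lost with DESeq2 (adjusted p = 0.0925), at 3700 UMIs (adjusted p = 0.517), with at least 3 transmitter UMIs (adjusted p = 0.244) and with an astrocyte limit of 1% (adjusted p = 0.169). Per 100 UMIs of *Slc1a2* and *Slc1a3*, *Rspo2*-positive barcodes held 11.7 and 18.8 UMIs of *Rorb* and the others 30.0 and 33.8.

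*Etv1* stood at 215 and 227 CPM in *Rspo2*-positive barcodes and at 128 and 119 CPM in the others, with UMIs in 78.1% and 78.6% against 51.0% and 51.7%. The 2 sides did not overlap, and the difference was 0.86 ± 0.18 (adjusted p = 0.0649). With the library as a replicate block, a fit that called 567 genes in this split against 65, it was the same 0.86 (adjusted p = 3.08e-05). Another 198 and 93 barcodes had *Etv1* without 2 UMIs of *Rspo2*, and these shallower barcodes cannot be called negative for *Rspo2*. *Neurod6* stood at 12.1 and 7.82 CPM against 3.89 and 2.76, in 25.0% and 17.9% against 4.38% and 3.89% of barcodes, a difference of 1.65 ± 0.45 (adjusted p = 0.163) that passed under the block at 1.63 (adjusted p = 0.0433). *Zfp536* stood at 26.6 and 54.7 CPM against 81.5 and 102, with a difference of -1.34 ± 0.32 (adjusted p = 0.112) and -1.30 under the block (adjusted p = 4.68e-05). For all 3 genes the direction was the same in both libraries, and it was so at like depth too. There *Rspo2*-positive barcodes with *Etv1* numbered 1.11 and 1.13 times the expected count, those with *Neurod6* 1.43 and 1.94 times and those with *Zfp536* 0.753 and 0.667 times. The counts behind the ratio of *Neurod6* were 24 against 16.8 and 5 against 2.58.

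In *Otof*-positive barcodes, 201 and 59, *Rorb* was at its lowest among glutamatergic barcodes. It stood at 7.18 and 12.7 CPM against 70.2 and 77.7 in the others, with UMIs in 7.46% and 10.2% against 25.8% and 24.8%. It fell by 3.09 ± 0.30 on the log2 scale (SE, adjusted p = 0.00483, edgeR) and was the 1 member of 9 to pass, where 1.03% of 11086 genes did and 0.668% were lower. At like depth the barcodes with both genes numbered 0.404 and 0.477 times the expected count. The call was lost with at least 3 transmitter UMIs (-2.69, adjusted p = 0.0534) and with an astrocyte limit of 1% (-2.13, adjusted p = 0.0700). Per 100 UMIs of *Slc1a2* and *Slc1a3*, *Otof*-positive barcodes held 5.47 and 9.32 UMIs of *Rorb* and the others held 32.1 and 40.9.

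*Zfp536* and *Etv1* had lower values in *Otof*-positive barcodes as well. *Zfp536* stood at 25.3 and 69.7 CPM against 93.6 and 106, a difference of -1.22 ± 0.40 (adjusted p = 0.303) that passed under the replicate block at -1.32 (adjusted p = 0.015). It also passed at 3700 UMIs (-2.02, adjusted p = 0.00511) and without the deepest 5% of barcodes (-1.75, adjusted p = 0.00711). *Etv1* stood at 97.6 and 107 CPM against 193 and 160, a difference of -0.82 ± 0.19 (adjusted p = 0.0863), with -0.84 under the block (adjusted p = 0.00793). The block fit called 460 genes in this split, against 114 without it. As a raw share of barcodes *Etv1* did not hold its direction between libraries, with 47.8% against 62.5% in library 2 and 61.0% against 53.0% in library 3. The *Otof*-positive barcodes of library 3 were deeper, at a median of 17299 against 12078 UMIs. At like depth *Otof*-positive barcodes with *Etv1* numbered 0.837 and 0.954 times the expected count, the same direction in both libraries. *Bcl11b* stood at 254 and 275 CPM in *Otof*-positive barcodes against 227 and 199 in the others, and the difference of 0.29 ± 0.19 did not pass (adjusted p = 0.874).

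In the *Grik1* split, 106 and 58 positive barcodes, no member passed edgeR's threshold, as did only 0.0581% of 10328 genes, while 3 members had an unadjusted p under 0.05 and DESeq2 called none. *Bcl11a* stood at 78.1 and 215 CPM against 49.3 and 75.3, a difference of 1.22 ± 0.45 (adjusted p = 0.689), with 1.05 and adjusted p = 6.72e-07 under the replicate block. *Rorb* stood at 17.6 and 39.2 CPM against 52.2 and 60.4, with -1.11 ± 0.36 (adjusted p = 0.524) and -1.15 under the block (adjusted p = 6.75e-05). *Etv1* stood at 104 and 112 CPM against 169 and 154, with -0.62 ± 0.19 (adjusted p = 0.451) and -0.63 under the block (adjusted p = 0.00166). Here the block fit called 400 genes, against 6 without it. For each of the 3 genes both libraries showed the same direction in CPM. At like depth *Bcl11a* was found in 1.26 and 1.30 times the expected number of *Grik1*-positive barcodes and *Etv1* in 0.870 and 0.917 times. *Rorb* was found in 0.723 times in library 2 and 1.08 times in library 3, so its direction in detection turned between libraries. *Grik1* and *Otof* marked some of the same barcodes, with 79 (74.5% of the *Grik1*-positive ones) in library 2 and 22 (37.9%) in library 3, so the 2 splits are not separate evidence.

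The *Pde11a* split had 36 and 19 positive barcodes, and no member passed edgeR's threshold, with 0.01% of 9964 genes doing so. No member had an unadjusted p under 0.05, DESeq2 called none, and none passed under the replicate block. *Bcl11a* stood at 24.2 and 294 CPM in the positive barcodes, so its 2 libraries disagreed in direction against 59.4 and 102 CPM in the others. *Etv1* was at 206.5 and 147 CPM against 148 and 140 CPM.

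In barcodes that passed none of the 4 thresholds, 168 and 87 with medians of 11252.5 and 10811 UMIs, *Rorb* and *Zfp536* were at their highest among glutamatergic groups. *Rorb* stood there at 107 and 112 CPM and *Zfp536* at 134 and 145 CPM, with UMIs in 29.2% and 28.7% and in 42.3% and 42.5% of barcodes. *Etv1* stood at 154 and 152 CPM, about its level in the whole class. Glutamatergic barcodes with *Slc17a6* and no *Slc17a7*, 28 and 21, were poor in *Bcl11b* (60.2 and 88.3 CPM) and *Etv1* (43.0 and 49.9 CPM) and held no UMI of *Neurod6*, which at these numbers allows a share of up to 10.7% and 14.3%.

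In the *Rspo2* split 1 of 25 pallial and 1 of 8 GABAergic lineage genes tested passed, where 0.598% of all genes did. In the *Otof* split 3 of 26 and 0 of 9 passed, where 1.03% of all genes did. Of the pallial list *Lmo4* was higher in *Rspo2*-positive barcodes by 1.20, and *Tshz3* and *Satb1* were among those lower in *Otof*-positive ones, with differences of -1.60 and -1.31. Of the GABAergic list *Meis2* was lower in *Rspo2*-positive barcodes, with a difference of -1.85. In the *Grik1* and *Pde11a* splits no gene of either list passed edgeR's threshold, with 5 and 4 pallial and 1 and 2 GABAergic lineage genes at an unadjusted p under 0.05.

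Co-detection asked which of the 9 genes share barcodes beyond what depth gives. In glutamatergic barcodes of each library, the number with both genes of a pair was set against the number expected from the shares of the single genes within groups of about 20 barcodes of like UMI total. Barcodes are not replicates, so the ratios are descriptions with no p. Among pairs with at least 5 expected barcodes in both libraries, *Rorb* and *Zfp536* stood out, and most others lay near 1. Of 36 pairs, 25 had at least 5 expected barcodes in both libraries, and 5 of these were above 1 and 9 below 1 in both.

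*Rorb* and *Zfp536* were found together in 53 barcodes of library 2 against 26.8 expected, a ratio of 1.97, and in 28 of library 3 against 15.8, a ratio of 1.78. Counting only barcodes where both genes had 2 or more UMIs, the ratios were 2.36 and 2.54. *Rorb* is highest in astrocyte-gated and *Zfp536* in oligodendrocyte-gated barcodes, so glial RNA was read beside the pair. In barcodes with both genes *Slc1a2* and *Slc1a3* made up 0.0367% and 0.0285% of UMIs, against 0.0150% and 0.0147% in barcodes with neither, and myelin genes 0.0163% and 0.00718% against 0.00771% and 0.00669%. In the 188 and 99 barcodes with no myelin UMI the ratios were 2.07 and 2.30. Without any UMI of *Slc1a2* or *Slc1a3* the pair was seen in 3 barcodes against 1.86 expected and in 1 against 0.524, too few to read. In GABAergic barcodes, where no astrocyte limit applied, the pair was seen in 11 barcodes against 10.95 expected and in 44 against 43.2. That class differs in this limit and in its level of *Zfp536*, so nothing is read from it for the glutamatergic ratio. The part of glial RNA in the glutamatergic ratio was not tested. Barcodes with both genes mostly passed none of the 4 thresholds, 64.2% and 64.3% of them against 26.2% and 35.0% of those with neither gene, and 7.55% and 10.7% were *Otof*-positive against 50.8% and 32.5%.

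**Figure D5:**
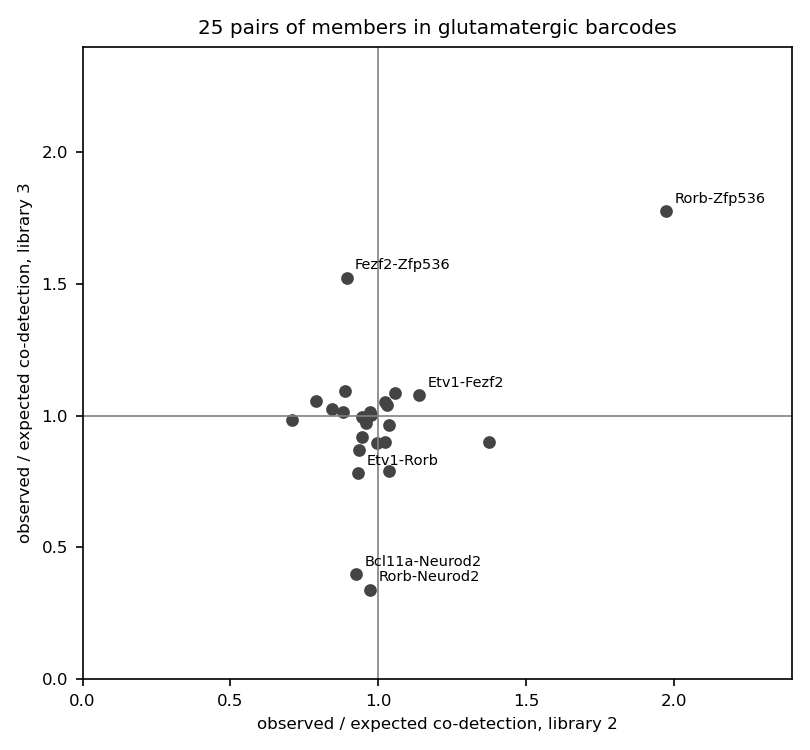
Observed over expected number of glutamatergic barcodes with both genes of a pair, library 2 against library 3, for the pairs with at least 5 expected barcodes in both. *Rorb* with *Zfp536* lies at 1.97 and 1.78, and *Etv1* with *Rorb* at 0.931 and 0.781.

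*Etv1* was found with *Bcl11b* at 1.06 and 1.08 times and with *Fezf2* at 1.14 and 1.08 times the expected number. With *Rorb* it was found less often than expected, in 48 barcodes against 51.5 and in 19 against 24.3. *Neurod2* and *Neurod6* shared 18 barcodes against 14.2 expected in library 2 and 7 against 3.37 in library 3. In library 3 *Neurod2* was found with *Bcl11a* in 4 barcodes against 10.05 expected and with *Rorb* in 2 against 5.90. In library 2 these counts were 33 against 35.7 and 22 against 22.6. *Tbr1* and *Rorb* shared 17 barcodes against 9.23 expected in library 2 and 3 against 2.09 in library 3. *Tbr1* and *Neurod6* shared 13 against 6.88 in library 2 and 1 against 1.19 in library 3, so that excess was seen in 1 library only. Of the glutamatergic barcodes, 59 of 484 and 10 of 208 held UMIs of at least 2 of *Neurod2*, *Neurod6*, *Tbr1* and *Fezf2*.

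*Foxp2*, a forkhead factor known from the intercalated cells of the amygdala, divides the GABAergic barcodes, and *Zfp536* and *Bcl11a* moved in opposite directions across it. Barcodes with at least 2 UMIs of *Foxp2* numbered 161 and 378, and those with none 226 and 296, at medians of 7737 and 7256 against 7581.5 and 7700 UMIs. *Zfp536* stood at 127 and 134 CPM in the positive barcodes and at 1031 and 916 CPM in the others, in 14.3% and 16.9% against 78.8% and 80.1% of barcodes. It fell by 2.87 ± 0.21 on the log2 scale (SE, adjusted p = 3.90e-06, edgeR). At like depth, *Foxp2*-positive barcodes with *Zfp536* numbered 23 against 80.3 expected in library 2 and 64 against 169 in library 3. Among *Foxp2*-negative barcodes, those with *Adarb2*, a marker of caudally derived interneurons, held *Zfp536* at 1277 and 1065 CPM. Barcodes with the interneuron peptide gene *Sst* held 726 and 508 CPM.

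*Bcl11a* was higher in *Foxp2*-positive barcodes, at 408 and 475 CPM against 248 and 239, in 87.6% and 91.3% against 53.5% and 58.4% of barcodes, with a difference of 0.89 ± 0.20 (SE, adjusted p = 0.0096, edgeR). *Etv1* was lower, at 18.7 and 15.1 CPM against 33.7 and 28.8, by 0.88 on the log2 scale (difference -0.88 ± 0.25, adjusted p = 0.0377). That call was lost with DESeq2 (adjusted p = 0.367), at 3700 UMIs (adjusted p = 0.543) and with at least 3 transmitter UMIs (adjusted p = 0.163). *Bcl11b* was at 141 and 164 CPM against 197 and 159, a difference of -0.18 ± 0.18 (adjusted p = 0.668). *Rorb* was at 19.4 and 55.9 CPM against 23.7 and 89.2, a difference of -0.50 ± 0.52 (adjusted p = 0.677) that passed under the replicate block at -0.58 (adjusted p = 0.0134). Of the *Rorb* UMIs of all GABAergic barcodes, 64 of 79 and 376 of 464 lay in the 12 and 39 barcodes at or over the astrocyte limit. This split was not fitted with that limit, so nothing is read from it for *Rorb*. The 4 sparse genes were below the filter in this comparison. Of the 5 members tested 1 was higher, where 5.25% of 10866 genes were, and 2 were lower, where 5.45% were (10.7% in either direction). Of the GABAergic lineage list, *Six3* and *Meis2* were higher by 3.50 and 3.38 and *Lhx6* differed by -3.25, and in all 4 others than *Foxp2*, the gene of the split, were higher and 9 lower of 17 tested. Of the pallial list 1 was higher and 6 lower of 23, led by *Satb1* (-2.03), *Sox5* (-1.97), *Tshz3* (-1.42) and *Lmo3* (-1.26).

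Co-detection of *Bcl11a* and *Zfp536* re-reads the GABAergic barcodes that *Foxp2* divides, so it is not separate evidence of their opposed pattern. At like depth *Bcl11a* and *Zfp536* shared 118 GABAergic barcodes against 143 expected in library 2 and 207 against 252 in library 3. The ratios were 0.826 and 0.820. The same pair in glutamatergic barcodes had ratios of 0.937 and 0.870.

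Genes with the pattern most like each member were taken over 16 groups, the classes and splits with the 2 libraries averaged, as the Pearson correlation of log2(CPM + 10) among 12519 genes. The groups share barcodes and libraries, so these are descriptions. The genes compared had a mean of at least 10 CPM in 1 group. *Tbr1* and *Neurod6* stayed below that, at up to 6.98 and 9.95 CPM in *Rspo2*-positive barcodes, so their correlations rest on few UMIs. *Tbr1* was nearest to *Prdm8* (0.98), *Neurod2* to *Gm11639* (0.98) and *Tfap2d* (0.97), *Neurod6* to *Tbata* (0.97) and *Etv1* to *C1ql3* (0.93). *Bcl11b* was nearest to *Camk2b* (0.98), *Bcl11a* to *Gprin3* (0.96), *Fezf2* to *Hgf* (0.89) and *Zfp536* to *Nap1l5* (0.90). *Rorb* was nearest to *Slc1a2* (0.97), a gene of the astrocyte gate. Among the members themselves *Tbr1* was nearest to *Neurod6* and *Neurod2*, both at 0.91, and *Bcl11b* and *Rorb* were farthest apart, at -0.81.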

How the data were processed

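Reads were mapped by the authors to mm10 (Cell Ranger 7.0.1), who deposited, for each library, the counts of UMIs per gene and barcode, which were used as deposited. Barcodes with over 200 genes, under 20% mitochondrial and under 0.2% hemoglobin UMIs were kept (20 and 76 removed in libraries 2 and 3). Classes were set by marker UMIs as described, with barcodes passing the gates of more than 1 glial or vascular class left out. No doublet caller was run, but barcodes with both transmitter sets were left out of neuronal classes. UMIs were summed per library and side and tested with edgeR 4.0.16 (R 4.3.3, TMM, filterByExpr, quasi-likelihood), adjusted over all genes tested, called at adjusted p under 0.05, with DESeq2 1.42.0 as an alternative. The 2 sums of a library come from the same nuclei suspension, so library numbers pair them; correlations of their deviations from the group means were 0.268 to 0.342. The SE given with an edgeR difference was derived from the test, as the size of the difference divided by the square root of the quasi-likelihood F. The replicate block is the fit with library as a term. It leaves 1 residual degree of freedom, so its p-values lean on the spread shared over all genes. The main fit, on 2 sums a side, borrows from that shared spread as well. Shares have exact Clopper-Pearson 95% intervals, and a count of 0 allows up to 3 counts. Thinning to 3700 UMIs left out shallower barcodes: 456 and 196 glutamatergic and 347 and 639 GABAergic remained. Expected co-detection was summed over groups of about 20 barcodes of like depth. Genes and scripts were run in Python 3.11.15 with numpy 2.4.6, scipy 1.17.1 and pandas 2.3.3, and steps were tested on simulated data. All 9 genes were named, and of each list the 4 largest differences past the threshold, apart from some genes not reported here. The members, lists and gates were chosen with earlier results of these data known.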

Additional observations from a re-analysis of the deposited data

Results flagged for a closer look

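Library 1 enters the comparisons above only in the fits named as having it added. Each of the 9 genes was detected in it above the 0.371 CPM that a count of 0 allows over its 819 barcodes. That is a signal in data that the main comparisons do not use. The levels over all barcodes were 99.2 CPM for *Etv1*, 27.5 for *Fezf2*, 24.6 for *Tbr1*, 88.9 for *Bcl11a*, 119 for *Bcl11b*, 156 for *Rorb*, 32.6 for *Neurod2*, 14.9 for *Neurod6* and 128 for *Zfp536*. In library 1 *Neurod2* was found in 21.4% of its 42 glutamatergic and 17.4% of its 23 GABAergic barcodes, *Fezf2* and *Tbr1* each in 19.0% and 13.0%, *Neurod6* in 11.9% and 4.35%, *Etv1* in 52.4% and 43.5%, *Bcl11a* in 42.9% and 43.5%, *Bcl11b* in 54.8% and 69.6%, *Rorb* in 47.6% and 52.2% and *Zfp536* in 57.1% and 65.2%.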

How the results depend on the processing

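Of 582 values of single members under alternatives, 534 were counted as unchanged, 25 gained and 16 lost a call, and 7 were counted as changes of sign. With 1 library left out there was no test, and a change of sign was counted only for members called in the main fit. Members not called there that turned in 1 library, such as *Bcl11a* in the *Pde11a* split, are thus among the 534. The 7 changes of sign counted were as follows. *Rorb* turned in glutamatergic against GABAergic barcodes with library 1 added (-0.12) and with *Slc17a7* alone (-0.21). *Fezf2* turned in the *Rspo2* split with the replicate block (-0.013) and an astrocyte limit of 1% (-0.044). In the *Pde11a* split *Tbr1* turned with DESeq2 (-0.023), and *Etv1* (-0.012) and *Bcl11b* (-0.20) with at least 3 transmitter UMIs. The astrocyte limit of 1%, a limit on myelin RNA and the counts of *Rorb* with *Zfp536* without glial UMIs were chosen after seeing the data. The causes of these changes were not tested.

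Counts of called genes, with members in brackets, moved as follows. Glutamatergic against GABAergic barcodes had 2195 (7), with 1411 (4) at 3700 UMIs and 2 (0) with library 1 added. The *Rspo2* split had 65 (1), with 567 (4) under the replicate block, 339 (5) without the filter on low counts, 12 (0) at 3700 UMIs, 99 (2) without the deepest 5%, 37 (0) with at least 3 transmitter UMIs, 123 (2) with other reference barcodes, 33 (0) with the 1% limit and 0 members with DESeq2. The *Grik1* split had 6 (0), with 400 (3) under the block, 191 (2) without the filter, 23 with DESeq2, 42 at 3700 UMIs, 21 without the deepest 5%, 26 with other reference barcodes and 2 with the 1% limit. The *Otof* split had 114 (1), with 460 (3) under the block, 418 (4) without the filter, 63 (2) at 3700 UMIs, 192 (2) without the deepest 5%, 10 (0) with at least 3 transmitter UMIs and 38 (0) with the 1% limit. The *Pde11a* split had 1 (0), with 91 under the block, 2 with DESeq2 size factors, 51 without the filter, 5 with DESeq2 and 5 without the deepest 5%. The *Foxp2* split had 1163 (3), with 2357 under the block and 713 with DESeq2. Pairs above 1 in both libraries numbered 10 of 36, with 18 without depth groups. With at least 2 UMIs they numbered 4, where only 27 pairs had a value in both libraries. They numbered 17 to 18 when 1 library was left out, where the pair need exceed 1 in the other only. Leaving out 1 library left 1 sum a side, so those fits gave values with no test. *Fezf2*, *Tbr1*, *Neurod2* and *Neurod6* are limited by depth, at 1 to 11 GABAergic UMIs per library.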
